A study of Mus musculus with 125 samples.

Results

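The 12 embryos described here were 1PN embryos, that is, embryos from zygotes in which a single pronucleus was seen, that the submitters' in silico call labels "Parthenote". They carry the genome of 1 parent only and are called uniparental below. All 1PN embryos with that label were taken: 4 of the JF1/Ms x C57BL/6 cross (embryos 1, 2, 3 and 7) and 8 of the C57BL/6 x JF1/Ms cross (embryos 4, 7, 10, 11, 14, 18, 19 and 22). They are 12 of the 125 embryos of the series. C57BL/6 is the common laboratory strain from which the mouse reference genome was made, and JF1/Ms is an inbred strain of Japanese origin derived largely from Mus musculus molossinus. The names of the crosses are shortened to JxB (JF1/Ms x C57BL/6) and BxJ (C57BL/6 x JF1/Ms). Neither the labels nor the protocol text say which strain was the mother, which parent's genome a uniparental embryo kept, or how the in silico call was made.

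Each library was made from a single 2-cell embryo. Zygotes of all crosses were sorted by their pronuclei 10 h after fertilization and lost their second polar body by micromanipulation, and the embryos were lysed at 34 h. Libraries came from a low-input full-length cDNA kit (SMART-Seq v4) and tagmentation (Nextera XT), and the authors deposited estimated counts for each gene. The embryos they are compared with are 21 JxB and 43 BxJ 2PN embryos (zygotes with 2 pronuclei), 31 C57BL/6 parthenotes and the 14 1PN embryos (3 JxB, 11 BxJ) that the in silico call did not label Parthenote; 4 embryos labelled dead or of low quality were left out. No label says which embryos share a mother, a litter or a collection day, so the p-values measure the spread between these embryos, part of which may be technical.

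The mouse 2-cell embryo is the stage at which transcription from the embryo's own genome first becomes strong, while the RNA stored in the egg is broken down. Genes of this first wave, among them Zscan4d and the Obox family, are switched on and off again within about a cell cycle. In a hybrid embryo the parental genomes share 1 cytoplasm, and in a uniparental embryo only 1 strain's copies of most genes are present, so a gene that works in 1 strain alone is read without its partner. Imprinted genes are a second layer, since they are read from the maternal or the paternal copy only.

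The JxB uniparental libraries differed widely among themselves. Their total counts were 3768364 (embryo 1), 3521091 (embryo 2), 1531882 (embryo 3) and 1002294 (embryo 7), against 2473117 to 4234722 in the 8 BxJ uniparental embryos. Genes with at least 1 count numbered 15232.8 ± 1950.0 (SD, n = 4) in JxB and 20314.1 ± 1272.8 (SD, n = 8) in BxJ uniparental embryos (exact permutation test over 495 arrangements, 2-sided p = 0.00404, adjusted over 4 library measures 0.0162). With every library thinned to 1002294 counts the ranges were 11089 to 15575 and 16329 to 19759 genes and did not overlap (exact p = 0.00404). Embryos 1 and 2 also stood apart from embryos 3 and 7. Across 18872 genes, their Spearman correlation with the mean of the JxB 2PN embryos was 0.56 and 0.58, while embryos 3 and 7 reached 0.78 and 0.72. The summed level of 67 oocyte-derived transcripts was 101810 and 91283 CPM (counts scaled to the library's total) in embryos 1 and 2 and 24159 and 24928 in embryos 3 and 7. In the BxJ uniparental group only embryo 10 was as high (109254 CPM), the other 7 lying between 24011 and 59161. The main counts of genes below are therefore given with all 4 JxB uniparental embryos and again with embryos 3 and 7 alone.

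**Figure D1:**
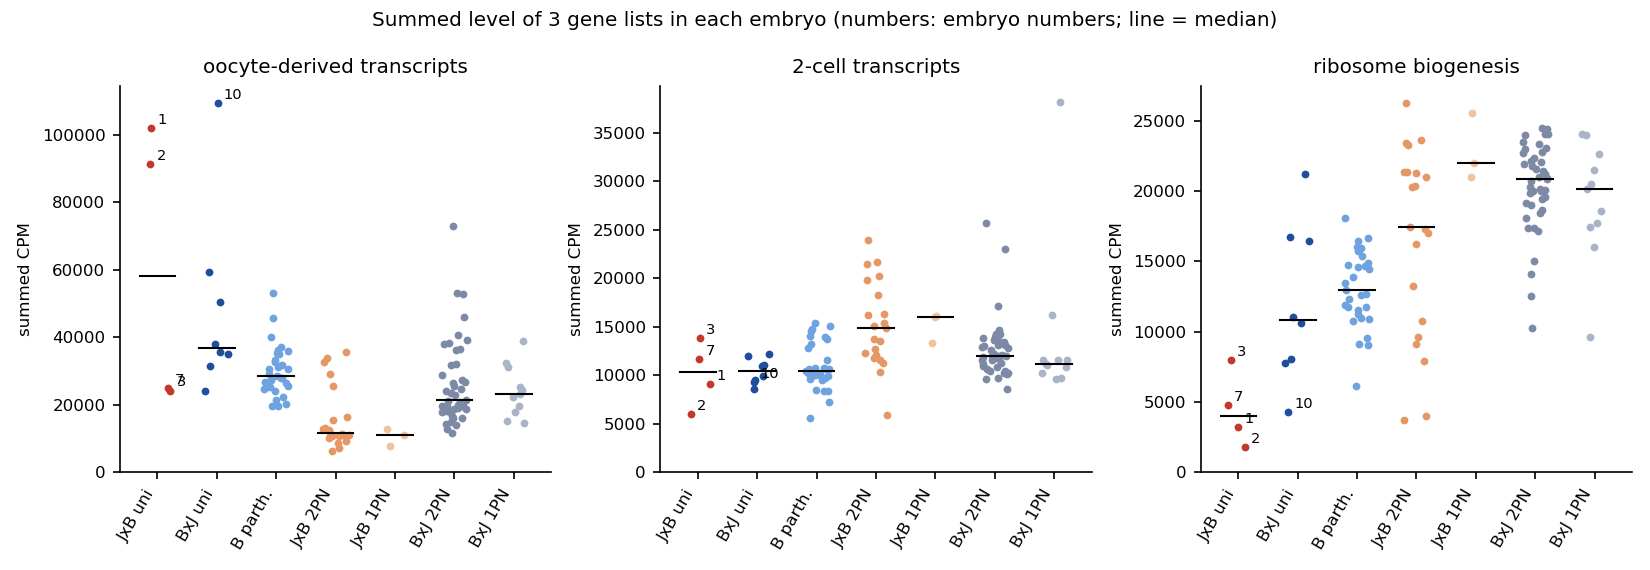
Summed level (CPM, linear axis from 0) of the oocyte-derived, 2-cell and ribosome biogenesis gene lists in each embryo; JxB uni and BxJ uni are the uniparental 1PN embryos, B parth. the C57BL/6 parthenotes, and lines are medians. JxB uniparental embryos 1 and 2 have 101810 and 91283 CPM of oocyte-derived transcripts, and all 4 have at most 7999 CPM of ribosome biogenesis transcripts, while 7 of 8 BxJ uniparental embryos have 7787 CPM or more.

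The labels were checked first. No uniparental embryo had more than 3.64 CPM over 8 Y-linked genes in sum. In 2PN embryos the lowest, median and highest sums were 0.653, 2.56 and 445 CPM (JxB) and 0.496, 151 and 328 CPM (BxJ). Some 2PN embryos of both crosses were thus as low, so a low sum alone does not mark an embryo as uniparental. Dppa3, a maternally supplied factor of the early embryo, was at 3022, 3070, 2128 and 896 CPM in the JxB and 2683 to 6393 CPM in the BxJ uniparental embryos. Of the 2-cell burst markers, Zscan4d had 0 and 8.52 CPM in embryos 1 and 2 and 1174 and 1236 CPM in embryos 3 and 7, and Obox3 had 0.531 and 24.1 CPM against 982 and 946 CPM. In BxJ uniparental embryos Zscan4d spanned 76.9 to 279 CPM and Obox3 31.4 to 733 CPM. The sum over the whole 2-cell list was 9067 and 6003 CPM in embryos 1 and 2, against 8576 to 12212 CPM in BxJ uniparental embryos. Markers of other cells were summed by list. Their calls are to be read beside those of all genes tested, of which 21.3% were lower and 9.55% higher in JxB. The lists hold few tested genes and were not tested as sets. The sum over 17 cumulus and granulosa cell markers was 21.9 to 92.7 CPM in JxB and 57.1 to 191 CPM in BxJ uniparental embryos, and 3 of 10 tested were lower and 0 higher. The sum over 17 sperm and testis markers was 201 to 407 and 83.9 to 232 CPM, and 4 of 12 tested were lower and 0 higher, although their median log2 fold change was 0.69. The sum over 12 markers of blood and other cells was 4.78 to 361 and 70.1 to 554 CPM, and 4 of 9 tested were lower and 0 higher. Most of that sum was Epcam in JxB embryos 3 and 7 (243 of 257 and 340 of 361 CPM), and the BxJ median of Epcam was 308 CPM. Epcam was read in the embryos of both groups, so the sum is no measure of other cells alone. The haemoglobin gene Hba-a1 had at most 4.99 CPM in JxB and 54.1 CPM in BxJ. Without embryos 1 and 2, 0 of the markers of these lists passed the test in either direction, while 6.77% of all genes were lower and 5.29% higher.

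Between the uniparental groups, JxB had 2328 higher and 5200 lower genes among the 24380 tested (edgeR quasi-likelihood test, Benjamini-Hochberg adjusted p below 0.05). These are 9.55% and 21.3% of the genes tested, 30.9% in all. Without embryos 1 and 2, 1381 genes were higher and 1768 lower of 26116 tested, or 5.29% and 6.77%, 12.1% in all. Called both with and without the pair were 2636 genes, of which 1125 were higher and 1511 lower with all 4 embryos; 1 of them had the opposite sign without the pair. In CPM, 625 genes (2.56%) had all 4 JxB embryos above all 8 BxJ embryos and 1364 genes (5.59%) had them all below. The median log2 fold change over all genes was -0.72, -0.57 with DESeq2's size factors in place of TMM factors and -0.51 with genes at 0 in a group set to their bound, so a gene or list should be read against that shift. CPM is a share of the counted RNA: a lower share of a transcript and less of it per embryo cannot be told apart.

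Genes silent in every JxB uniparental embryo are described first. In 59 genes (0.242% of those tested) each of the 4 embryos had at most 1 CPM and each of the 8 BxJ embryos at least 10 CPM; 31 of the 59 had not a single count in the 4. Of the 59, 34 are unnamed gene models or pseudogenes. In the C57BL/6 parthenotes, 58 of the 59 averaged at least 10 CPM, with a median level 0.843 of that in the BxJ uniparental embryos. In all, 55 of the 59 averaged at least 1 CPM in 2PN embryos of both crosses. Over the 59 the median level was 0.413 (JxB) and 0.449 (BxJ) of the BxJ uniparental level. The genes were chosen for being high in BxJ uniparental embryos, so these ratios are shaped by the choice and do not measure dosage. Without embryos 1 and 2 the set grew to 102 genes, since fewer embryos had to be silent. Silent means here that few or no reads were counted. The reads were aligned to the C57BL/6 reference. Whether reads of JF1/Ms origin were lost or assigned elsewhere was not tested for these genes or for those named below.

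Spz1, a bHLH-zipper transcription factor first described in testis (chromosome 13, 92574631 to 92576232, GRCm38), was at 0 in the 4 with the smallest adjusted p of the named lower genes. Its level was 0 CPM in all 4 JxB uniparental embryos and 32.4, 49.5 and 104 CPM (lowest, median, highest) in BxJ. In 2PN embryos it averaged 31.6 ± 31.6 CPM (SD, n = 21) in JxB and 35.9 ± 13.1 CPM (SD, n = 43) in BxJ, and every one of these 64 embryos had a count. Over the group the uniparental contrast was at least 178-fold, set against a floor of 3 counts over the 4 embryos (adjusted p = 1.80e-16; at least 46.0-fold and 1.83e-08 without embryos 1 and 2, whose counts make up most of the group's depth and so set the bound). The contrast of the crosses in 2PN embryos was -0.29 on the log2 scale (adjusted p = 0.239), and the difference between both contrasts passed the test (adjusted p = 8.21e-15).

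Antxr1, a cell-surface receptor that binds collagen and anthrax toxin (chromosome 6, 87133853 to 87335809), had the same form. All 4 JxB uniparental embryos were at 0, and the BxJ embryos had 42.7, 83.2 and 176 CPM (lowest, median, highest). The bound was at least 285-fold lower (adjusted p = 4.92e-12; at least 73.6-fold and 6.41e-06 without embryos 1 and 2). In 2PN embryos Antxr1 was slightly higher in JxB than in BxJ, with means of 57.1 and 35.1 CPM and a log2 fold change of 0.62 ± 0.25 (SE; adjusted p = 0.0356).

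Another 8 genes of the naming rule were at 0 in all 4, averaged 10.8 CPM (Porcn) to 85.9 CPM (Olfr376) in JxB 2PN embryos, and passed the difference test. They were Ccnjl (a cyclin J relative), Porcn (the acyltransferase that lipid-modifies Wnt ligands), Hmgn3 (a nucleosome-binding protein), Sva (seminal vesicle antigen), Fgf7 (a growth factor for epithelia), Aloxe3 (an epidermal lipoxygenase), Olfr376 (an odorant receptor) and Vmn1r227 (a vomeronasal receptor). Their bounds ran from at least 124-fold (Vmn1r227) to at least 286-fold (Ccnjl), and from 31.9-fold to 73.8-fold without embryos 1 and 2. For Fgf7 the BxJ uniparental embryos had 18, 46.1 and 122 CPM (lowest, median, highest) and the 2PN means were 28.8 and 28.2 CPM in JxB and BxJ. Hmgn3, with 2.85, 54.1 and 131 CPM in BxJ uniparental embryos, had 2PN means of 17.1 and 17.3 CPM. Arhgap8, a GTPase-activating protein, was also at 0 in the 4 and at 6.51, 74.5 and 126 CPM in the 8. In 2PN embryos Arhgap8 was lower in JxB too (18.8 against 68.7 CPM, log2 fold change -1.86 ± 0.27, adjusted p = 6.62e-09). Of the 8 genes above, Porcn and Aloxe3 were also lower in JxB 2PN embryos (log2 fold change -1.48 and -1.02, adjusted p = 0.000264 and 0.0331). Olfr376 was higher there (1.68, adjusted p = 0.000523), and the others did not pass the 2PN test. Receptor genes such as Olfr376 and Vmn1r227 belong to large families with near copies, so their counts are less certain.

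Adarb2, a brain-type member of the RNA-editing ADAR family (chromosome 13, 8202526 to 8768762), differed from these in 2PN embryos. It was at 0 in the 4 JxB uniparental embryos and at 29.2, 61.5 and 220 CPM in the 8 BxJ embryos, a gap of at least 247-fold (adjusted p = 2.30e-08; at least 63.8-fold and 0.000478 without embryos 1 and 2). In JxB 2PN embryos it was nearly silent as well, with 17 of 21 at 0 and a mean of 0.497 CPM, whereas all 43 BxJ 2PN embryos had it, at a mean of 44.7 CPM. Its log2 fold change between the 2PN groups was -6.93 (adjusted p = 2.07e-22), and the difference of both contrasts did not pass the test (adjusted p = 0.128). Another 2 genes of this form, picked after their values were seen, are Xdh, the xanthine dehydrogenase of purine breakdown, and Trim30a, an inhibitor of inflammatory signalling. Xdh had 0 CPM in the 4, a median of 27.6 in the 8, and means of 0.175 and 18.8 CPM in JxB and BxJ 2PN embryos; Trim30a had 0, 18.4, 0.341 and 7.98 CPM in the same order.

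Upstream sequence of the switched genes is shown for 3 of them, 2 silent in 1 group and 1 silent in the other. The windows are RefSeq's, 250 bases before to 50 bases after the annotated start, on GRCm38.p6: chr13:92576183-92576482 on the minus strand for Spz1 and chr17:20734956-20735255 on the plus strand for Vmn1r227, both silent in JxB uniparental embryos, and chr1:190170778-190171077 on the minus strand for Prox1, which among uniparental embryos was read only in JxB. Capitals mark the TATA-box letters TATAAA on either strand (TTTATA when read on the other).
Spz1: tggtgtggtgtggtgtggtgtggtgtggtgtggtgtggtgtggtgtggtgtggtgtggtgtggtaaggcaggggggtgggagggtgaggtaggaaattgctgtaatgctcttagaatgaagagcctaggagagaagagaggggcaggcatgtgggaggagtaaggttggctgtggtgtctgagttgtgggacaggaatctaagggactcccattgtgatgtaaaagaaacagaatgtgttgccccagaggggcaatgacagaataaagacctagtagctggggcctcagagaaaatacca
Vmn1r227: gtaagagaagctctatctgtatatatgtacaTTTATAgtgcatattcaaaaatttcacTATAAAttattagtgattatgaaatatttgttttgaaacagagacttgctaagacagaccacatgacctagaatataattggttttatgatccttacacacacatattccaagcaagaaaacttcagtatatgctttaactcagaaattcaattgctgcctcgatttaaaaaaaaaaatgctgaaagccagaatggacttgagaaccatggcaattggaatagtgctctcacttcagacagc
Prox1: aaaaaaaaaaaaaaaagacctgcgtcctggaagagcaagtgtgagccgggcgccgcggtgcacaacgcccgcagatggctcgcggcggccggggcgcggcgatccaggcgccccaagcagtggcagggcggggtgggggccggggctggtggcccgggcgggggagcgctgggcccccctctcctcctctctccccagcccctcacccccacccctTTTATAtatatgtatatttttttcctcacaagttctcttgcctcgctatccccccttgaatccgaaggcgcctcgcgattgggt
Spz1 has no such match, Vmn1r227 has 2 and Prox1 has 1, in the first of its 2 listed start sites. Of 29 promoters found for genes silent in JxB uniparental embryos, 2 hold TATAAA and 4 hold TAATCC, the core letters read by OTX-type homeodomain proteins; of 5 found for genes silent in BxJ uniparental embryos, 2 hold TATAAA and 0 hold TAATCC. Among all 32851 promoters of this length, 13.6% hold TATAAA and 7.06% TAATCC, both counted on both strands. The reference letters are those of C57BL/6, and the JF1/Ms sequence of these windows was not used here.

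The reverse was found in 17 genes (0.0697% of those tested), with at most 1 CPM in each of the 8 BxJ uniparental embryos and at least 10 CPM in each of the 4 JxB embryos. None of the 17 averaged 1 CPM or more in the C57BL/6 parthenotes, and 13 of the 17 averaged under 1 CPM in BxJ 2PN embryos, where the median level was 0.00427 of that in JxB uniparental embryos. All 17 averaged 1 CPM or more in JxB 2PN embryos, at a median of 0.400 of the JxB uniparental level. Here too the ratios are to a level by which the genes were chosen. Without embryos 1 and 2, 81 genes met the rule.

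Prox1, a homeobox transcription factor known from lymphatic and lens development (chromosome 1, 190118035 to 190170827), led this group. It had 159, 154, 115 and 140 CPM in JxB uniparental embryos 1, 2, 3 and 7 and not 1 count in the 8 BxJ embryos. The groups did not overlap, and the gap was at least 1355-fold (floor of 3 counts over the 8 embryos; adjusted p = 3.54e-14; at least 1138.5-fold and 2.34e-12 without embryos 1 and 2). Its SD over the 4 embryos was 19.8 CPM, small beside the split between embryos 1 and 2 and embryos 3 and 7 in many other genes. The 2PN embryos split by cross in the same direction: JxB had a mean of 45.8 CPM, with a count in 21 of 21, and BxJ a mean of 0.0729 CPM, with 38 of 43 at 0 (log2 fold change 8.73, adjusted p = 1.71e-33). The difference of both contrasts did not pass the test (adjusted p = 0.0749).

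Bfsp1, which encodes the lens filament protein filensin, showed the same split (76.4, 57.7, 29.4 and 7.98 CPM against 0 in all 8, at least 506-fold, and 191-fold without embryos 1 and 2). JxB 2PN embryos had a mean of 62.3 CPM and BxJ 2PN embryos 0.0522 CPM, a log2 fold change of 9.50 (adjusted p = 2.38e-36). Shisa9 (a modulator of glutamate receptors), Thrsp (a regulator of lipid synthesis), Anxa1 (an annexin that restrains inflammation), and the sulfotransferase genes Chst9 and Chst15 were also at 0 in all 8. The 2PN contrasts of Shisa9, Thrsp, Anxa1 and Chst15 had the same direction, between 4.12 (Chst15) and 7.05 (Thrsp) on the log2 scale; Chst9 averaged 5.82 CPM in JxB 2PN embryos and had no count in the 43 BxJ 2PN embryos. Their levels in JxB uniparental embryos lay between 3.99 CPM (Chst9, embryo 7) and 59.97 CPM (Shisa9, embryo 1). Mal2, a membrane-traffic protein named here after its values were seen, had 92.3, 226, 13.7 and 170 CPM against 0 to 1.91 CPM, and 27.8 against 0.0688 CPM in 2PN embryos.

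In 5 genes of the same rule the gap between crosses was wider in uniparental than in 2PN embryos by the test of the difference with all 4 JxB embryos. Without embryos 1 and 2, Tnfrsf11b alone of the 5 passed it (adjusted p = 4.92e-06), while Sntb1, Cntnap5a, Ppp1r3a and Mef2c did not (0.145, 0.0547, 0.158 and 0.129). Sntb1, a syntrophin of the dystrophin complex, had 84.9, 69.9, 20.2 and 51.9 CPM against 0 in all 8, with 2PN means of 21.2 and 0.354 CPM (adjusted p of the difference 0.0231). For Cntnap5a, a contactin-associated adhesion protein, the values were 18, 49.7, 34.6 and 37.9 CPM against 0, with 2PN means of 5.25 and 0.150 CPM (adjusted p = 0.0138). Ppp1r3a, the muscle glycogen-targeting subunit of protein phosphatase 1, and Mef2c, a MADS-box transcription factor, had adjusted p of 0.0459 and 0.0360. Tnfrsf11b, which encodes the decoy receptor osteoprotegerin, stood apart from these, since the crosses did not differ in 2PN embryos (9.82 against 5.63 CPM, adjusted p = 0.200). It had 0.265, 9.09, 102 and 59.9 CPM in JxB uniparental embryos 1, 2, 3 and 7 and 0 in all 8 BxJ embryos.

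**Figure D2:**
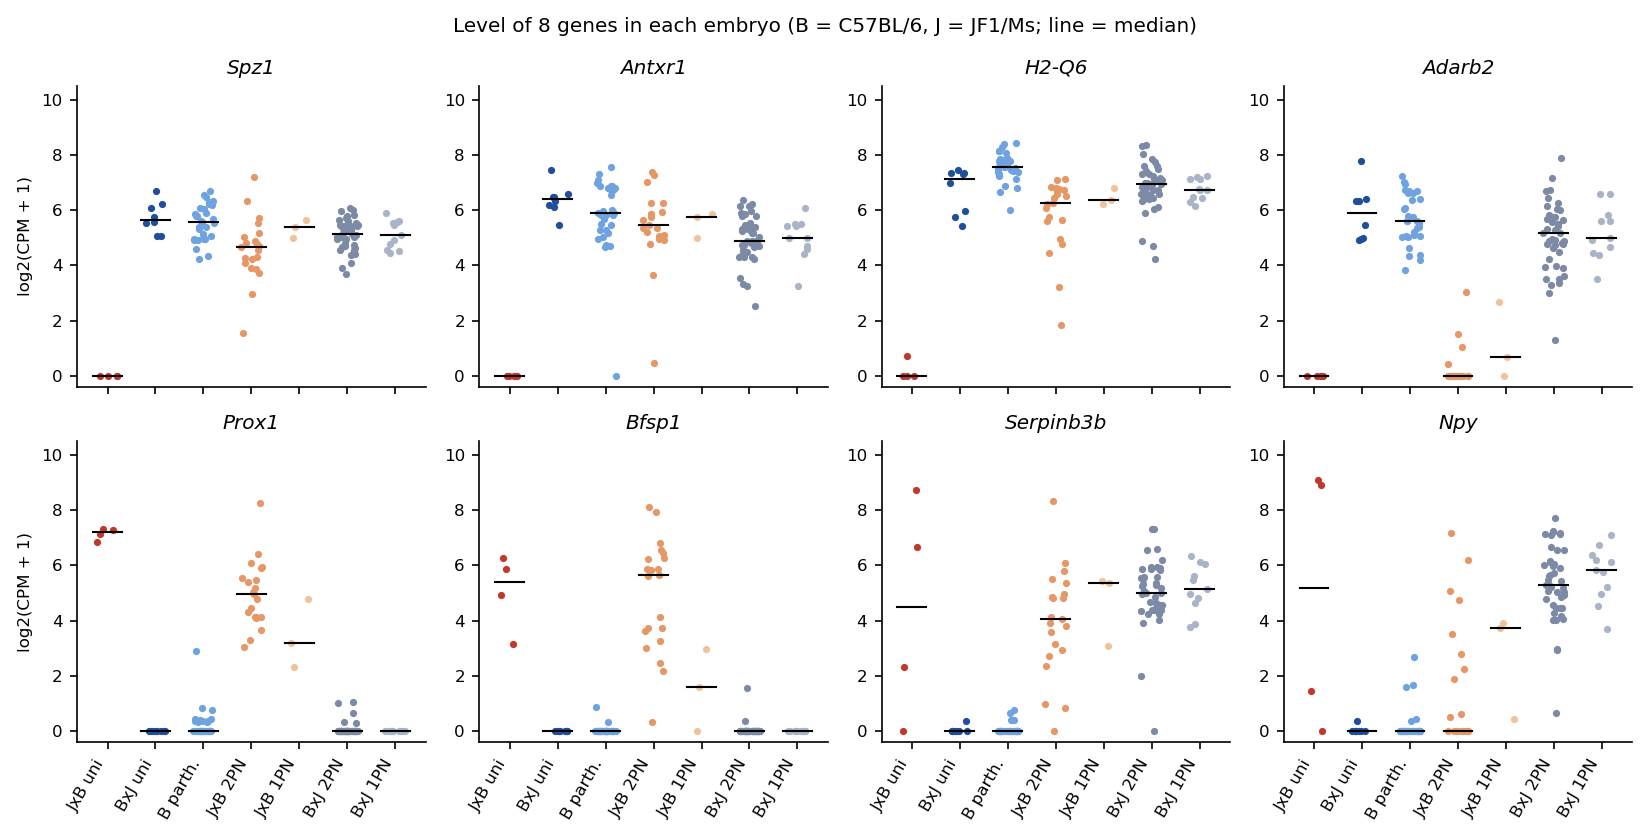
Level of 8 genes, as log2(CPM + 1), in every embryo of 7 groups; each point is 1 embryo, lines are medians, B is C57BL/6, J is JF1/Ms and uni is uniparental 1PN. Spz1, Antxr1 and H2-Q6 are at or near 0 in the 4 JxB uniparental embryos and present in nearly all embryos of the other groups, Adarb2 and Bfsp1 split both uniparental and 2PN embryos by cross, and Npy is at 551 and 480 CPM in only 2 of the 4 JxB uniparental embryos.

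Across all genes, the direction of the cross in uniparental embryos was set beside the same contrast in 2PN embryos, which share no library with it. In 2PN embryos 4664 genes were higher in JxB and 5146 lower (19.1% and 21.1% of the genes tested, 40.2% in all). Of the 1125 genes higher in JxB uniparental embryos with and without embryos 1 and 2, 723 (64.3%) were higher in JxB 2PN embryos and 39 were lower. Those 723 are 15.5% of the 2PN genes called higher. Of the 1511 lower genes, 832 (55.1%, or 16.2% of the 2PN genes called lower) were lower in 2PN embryos and 43 higher. The test of the difference between both contrasts called 888 genes higher (3.64%) and 3164 lower (13%), 16.6% in all, and without embryos 1 and 2 it called 508 (1.95%) and 759 (2.91%), 4.85% in all. Among the 1511 lower genes 1157 (76.6%) passed that test and among the 1125 higher genes 424 (37.7%) did. These genes were chosen by the uniparental contrast, which is itself part of the difference test. Their shares can therefore not be set against those of all genes.

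**Figure D3:**
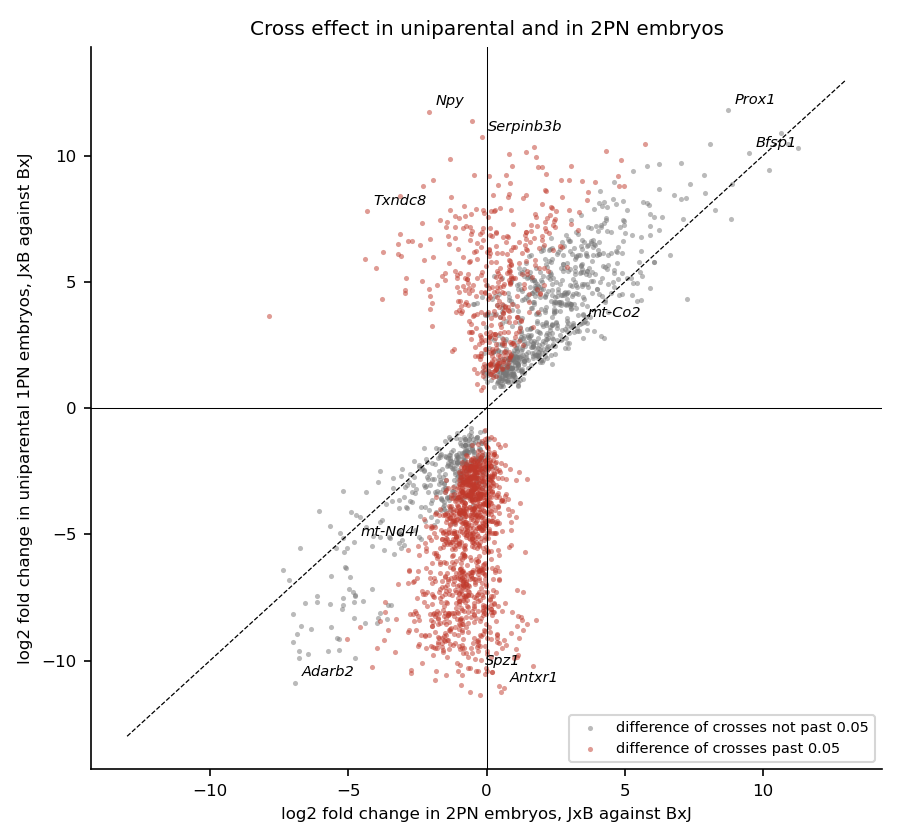
Log2 fold change of JxB against BxJ in uniparental 1PN embryos (vertical) and in 2PN embryos (horizontal) for the genes called in uniparental embryos with and without embryos 1 and 2; red points passed the test of the difference of both contrasts, the dashed line marks equal contrasts. Prox1, Bfsp1 and Adarb2 lie far out in both, Spz1 and Antxr1 are low on the vertical axis alone, and Npy and Txndc8 lie above 0 in uniparental and below 0 in 2PN embryos.

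Npy, which encodes neuropeptide Y (chromosome 6, 49822710 to 49829507), had the largest positive difference among the genes the rule named. Its levels in JxB uniparental embryos 1, 2, 3 and 7 were 0, 1.70, 551 and 480 CPM, and 7 of 8 BxJ uniparental embryos had no count (highest 0.295 CPM). The C57BL/6 parthenotes were alike low, at a mean of 0.330 CPM with 26 of 31 at 0. All 43 BxJ 2PN embryos had Npy, at a mean of 57.8 CPM, while JxB 2PN embryos averaged 14.2 CPM with 11 of 21 at 0. So the cross with the higher level was JxB in uniparental embryos (log2 fold change 11.74 ± 1.61 SE, adjusted p = 5.06e-09) and BxJ in 2PN embryos (-2.08, adjusted p = 0.00106). Embryos 3 and 7 alone carried the uniparental value.

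Serpinb3b, a serine protease inhibitor, and Txndc8, a thioredoxin of sperm, shared that restriction to embryos 3 and 7. Serpinb3b had 0, 3.98, 102 and 419 CPM against at most 0.285 CPM in the 8, and 35.3 and 41.6 CPM in JxB and BxJ 2PN embryos. Txndc8 had 0, 0, 6.53 and 31.9 CPM against 0 in all 8, and 0.700 and 15.2 CPM in the 2PN groups. The odorant receptor Olfr58 (0, 0, 16.3 and 39.9 CPM) was of the same kind. Zfp11, a zinc finger gene, rested on embryo 7 alone, with 354 CPM and 0 in the other 3; without it the fitted uniparental log2 fold change turned to -5.19. On the negative side of the difference were, beside Antxr1, Sva, Olfr376 and Vmn1r227, the arrestin-domain gene Arrdc4 and the vomeronasal receptor Vmn2r94, both at 0 in all 4 JxB uniparental embryos and at means of 32.2 and 32.3 CPM in JxB 2PN embryos. Arrdc4 did not pass the uniparental test without embryos 1 and 2 (adjusted p = 0.0827).

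The uniparental groups were also set beside the C57BL/6 parthenotes; both comparisons share the parthenotes, and each shares an arm with the comparison above. BxJ uniparental embryos differed from parthenotes in 457 genes, 325 higher (1.33%) and 132 lower (0.541%), 1.87% of those tested,, and in 147 genes when embryo 10 was left out. JxB uniparental embryos differed in 10480 genes, 3852 higher (15.8%) and 6628 lower (27.2%), 43% in all, and in 4591 (17.6%) without embryos 1 and 2. For Spz1 the parthenote mean was 50.3 CPM, for Antxr1 73.6 CPM and for Adarb2 60.4 CPM, all near the BxJ uniparental medians, and for Prox1 and Bfsp1 it was 0.338 and 0.0352 CPM. The rank correlation of the 8 BxJ uniparental embryos with the parthenote mean ran from 0.73 (embryo 10) to 0.91, and that of the 4 JxB embryos from 0.50 to 0.64, described over genes that are not independent.

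The 13 protein-coding mitochondrial genes differed between the crosses in both directions, in uniparental as in 2PN embryos. Against all 4 JxB uniparental embryos, 4 were higher and 7 lower; without embryos 1 and 2, 4 were higher and 3 lower; in 2PN embryos 4 were higher and 9 lower; and 0 of 13 passed the test of the difference in the edgeR fit, where 3.64% of all genes were higher and 13% lower. mt-Nd4l, a subunit of complex I, had 3.45, 15.6, 30 and 36.9 CPM in JxB uniparental embryos 1, 2, 3 and 7 and 530, 828 and 1458 CPM (lowest, median, highest) in the 8 BxJ embryos. Its log2 fold change was -5.31 ± 0.47 (SE; adjusted p = 1.44e-17) and -4.80 in 2PN embryos. mt-Nd3, of the same complex, had log2 fold changes of -4.44 and -3.79.

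mt-Co2, a subunit of cytochrome c oxidase, went the other way, at 548, 636, 1574 and 2498 CPM against 61.7, 117 and 251 CPM. Its log2 fold change was 3.37 ± 0.36 (adjusted p = 3.28e-13), and 3.43 in 2PN embryos. mt-Atp6 (3.02) and mt-Atp8 (1.05), subunits of ATP synthase, and mt-Co3 (2.14) were higher too. The share of all mitochondrial counts was 3.17 ± 2.23% (SD, n = 4) in JxB and 7.40 ± 3.06% (SD, n = 8) in BxJ uniparental embryos (exact permutation test, adjusted p = 0.0323, but 0.0970, 0.0970 and 0.0727 without JxB embryo 1, 2 or 3 and 0.237 without both 1 and 2), and lower in embryos 1 and 2 (0.928% and 1.77%) than in 3 and 7 (4.20% and 5.78%). Nuclear copies of mitochondrial sequence can share these reads and the reads were aligned to the C57BL/6 reference, so the counts of these genes are uncertain; the part of either in the result was not tested.

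**Figure D4:**
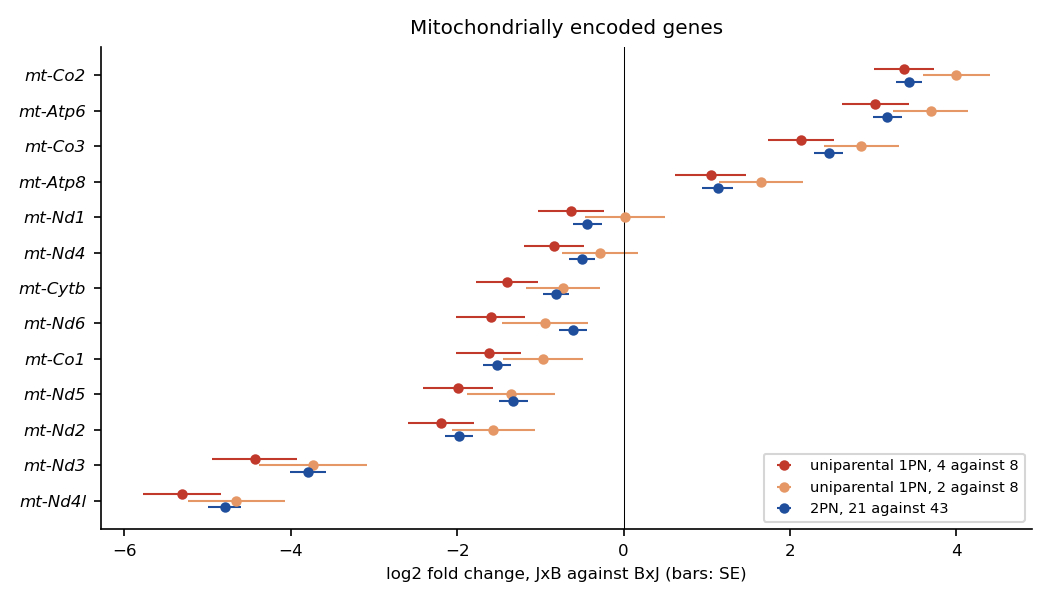
Log2 fold change (JxB against BxJ) with its standard error for the 13 mitochondrially encoded genes in uniparental embryos (4 against 8, and 2 against 8 without embryos 1 and 2) and in 2PN embryos (21 against 43). mt-Co2, mt-Atp6, mt-Co3 and mt-Atp8 lie above 0 and mt-Nd3 and mt-Nd4l below -3 in all 3 comparisons.

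Gene lists were described by their counts beside those of all genes tested, 9.55% higher and 21.3% lower with all 4 JxB embryos and 5.29% and 6.77% without embryos 1 and 2. In what follows 4 values are JxB uniparental embryos 1, 2, 3 and 7, and 3 values are the lowest, median and highest of the 8 BxJ uniparental embryos. Ribosome biogenesis, the set of factors that process ribosomal RNA and assemble ribosomes, had the largest share of lower genes of all lists with all 4 embryos: 51 of 77 were lower and 0 higher (median log2 fold change -1.67, against -0.72 over all genes), and 24 lower and 0 higher without embryos 1 and 2 (median -1.14, against -0.83). The summed level was 3205, 1777, 7999 and 4758 CPM in JxB uniparental embryos 1, 2, 3 and 7 and 4280 (embryo 10) to 21254 CPM in BxJ. The embryos with the most oocyte-derived RNA, JxB 1 and 2 and BxJ 10, were the 3 with the lowest summed level of this list; the part of that in the result was not tested. Nob1, the nuclease that finishes the small-subunit RNA, had 5.31, 15.3, 0.653 and 0 CPM against 24.3, 123 and 256 CPM (log2 fold change -4.37 ± 0.70, adjusted p = 4.07e-07). Nip7 had 11.7, 15.9, 20.9 and 58.9 CPM against 64.8, 311 and 843 CPM, and Rrp1 and Nop16 were lower as well. In 2PN embryos 21 of 77 were lower and 2 higher.

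Cytosolic ribosomal proteins were lower in 42 of 81 and higher in 2, but in 8 and 1 of 81 without embryos 1 and 2, while 6.77% of all genes were lower there. Their summed level was 2021 and 2654 CPM in embryos 1 and 2 and 13547 and 5549 CPM in embryos 3 and 7, against 6325 to 23194 CPM. Rpl6 (3.18, 0.568, 15.7 and 11 CPM against 39.3, 101 and 221) and Rps23 (21.8, 3.98, 18.3 and 0 CPM against 24.6, 178 and 315) did not overlap between the groups. Of the 81, 4 had all JxB below all BxJ uniparental embryos and 0 had them above. Among all genes tested the shares were 5.59% and 2.56%, so lack of overlap was not a trait of this list. These genes have many processed pseudogenes that can share reads, which makes single members uncertain.

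The proteasome, which degrades tagged proteins, had 21 of 45 subunits lower and 3 higher with all 4 embryos, and 15 lower and 1 higher without embryos 1 and 2. The medians were -1.43 and -1.52. Psma2, a core subunit, had 0, 13.6, 24.8 and 3.99 CPM against 121, 185 and 319 CPM (log2 fold change -4.13 ± 0.54, adjusted p = 9.93e-10). Psmd6, of the regulatory cap, had 0, 14.2, 1.31 and 4.99 CPM against 37.7, 115 and 319 CPM. In 2PN embryos 20 of 45 were lower in JxB and 1 higher, and 17 of 45 passed the difference test as lower and 4 as higher.

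Among housekeeping lists, splicing factors (24 of 60 lower and 0 higher; 13 and 0 without embryos 1 and 2) and DNA replication (19 of 53 lower and 2 higher; 8 and 0) had no more than 2 higher genes each. Hnrnpk, an RNA-binding protein of pre-mRNA processing, had 14.9, 45.7, 106 and 7.98 CPM against 139, 377 and 1126 CPM. Cdc45, part of the replicative helicase, had 0, 14.8, 34.6 and 51.9 CPM against 53.4, 358 and 644 CPM, and its groups did not overlap. Mitochondrial ribosomal proteins (28 of 78 lower, 5 higher; 11 and 2 without the pair), nuclear import (20 of 65 lower, 2 higher; 8 and 0), mitosis (17 of 58 lower, 4 higher; 4 and 1) and apoptosis (12 of 33 lower, 1 higher; 4 and 0) had fewer lower genes without the pair. Glycolysis had 6 of 31 lower and 1 higher, and 1 and 1 without the pair. Both directions were in closer numbers in p53 targets (8 of 41 lower and 5 higher, 2 and 2 without the pair) and heat shock and stress (10 of 43 lower and 5 higher, then 3 and 6). The same held for early lineage genes (6 of 31 lower and 4 higher, then 3 and 1) and nuclear-encoded respiratory chain subunits (20 of 73 lower and 12 higher, then 7 and 9). Fgf4, a growth factor of the early lineage list, had no count in the 4 and 2.66, 18.2 and 49.7 CPM in the 8, at least 76.9-fold (19.8-fold without the pair). Endog, a mitochondrial nuclease of cell death, had none in the 4 either, at least 47.9-fold lower (12.4-fold).

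**Figure D5:**
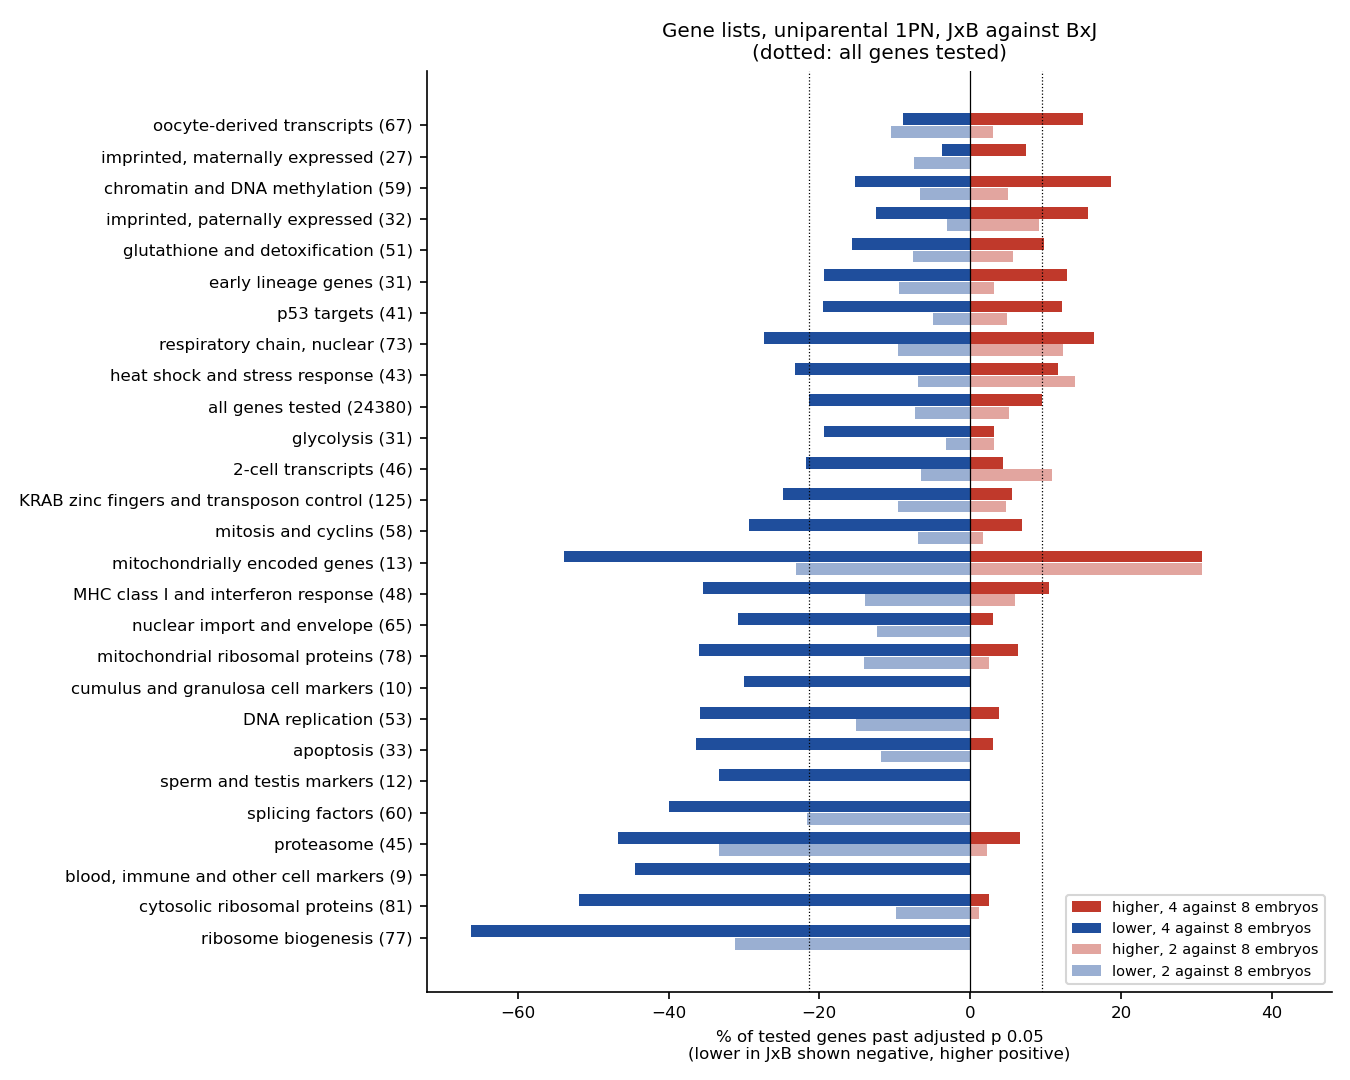
Share of the tested genes of each list that were lower (blue, negative side) or higher (red) in JxB than in BxJ uniparental embryos at adjusted p below 0.05, with all 4 JxB embryos (full colour) and without embryos 1 and 2 (pale); numbers in brackets are genes tested and dotted lines mark all genes with all 4 embryos. With all 4 embryos, ribosome biogenesis is lowest, with 51 of 77 genes lower and 0 higher.

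Lists of the 2-cell burst and of the egg's stored RNA are given next, again beside all genes (21.3% lower and 9.55% higher, 6.77% and 5.29% without embryos 1 and 2). Of 46 2-cell transcripts 10 were lower and 2 higher with all 4 embryos, and 3 lower and 5 higher without embryos 1 and 2. Nelfa, a subunit of the negative elongation factor, had 28.4, 11.4, 13.1 and 3.99 CPM against 66.3, 145 and 291 CPM (log2 fold change -3.42 ± 0.44, adjusted p = 7.35e-10), with no difference past the test between the 2PN groups (0.06, adjusted p = 0.791). Obox8, a homeobox gene of the 2-cell stage, had 0.531, 0, 25.5 and 8.98 CPM against 12.4, 476 and 819 CPM; its family has near copies. Duxf3, the gene model of the Dux activator, was higher, at 2.12, 34.1, 3.26 and 82.8 CPM against 0 to 8.90 CPM (adjusted p = 0.000157). Spz1, described above, is a member of this list.

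Oocyte-derived transcripts were higher in 10 of 67 and lower in 6 with all 4 embryos, and in 2 and 7 without embryos 1 and 2, so the median turned from 0.35 to -0.73. Cnot6l, a deadenylase that removes stored RNA, was higher in all 4 (893, 801, 495 and 775 CPM against 100, 178 and 357 CPM; log2 fold change 1.92 ± 0.38, adjusted p = 3.83e-05, and 0.00895 without the pair). Gtsf1, a small RNA pathway factor, was lower, at 0, 1.14, 0 and 0 CPM against 7.42, 20.7 and 47.7 CPM.

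Within the JxB uniparental group, 54 genes had at most 1 CPM in embryos 1 and 2 and at least 100 CPM in embryos 3 and 7, and 0 genes showed the reverse. Of the 54, 51 had a median of at least 10 CPM in the BxJ uniparental embryos. The same share over all genes as high in embryos 3 and 7 was not counted. Among them are Epcam, an epithelial adhesion protein (0, 0.284, 243 and 340 CPM; BxJ median 308), and Trim43a of the 2-cell stage (0.265, 0.568, 491 and 387 CPM; BxJ median 415). Polr1c, a subunit of RNA polymerases I and III, had 0.265, 0, 166 and 145 CPM against a BxJ median of 222 CPM. These genes were chosen on the values given, which are a description of 4 embryos and not a test.

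Some major histocompatibility genes had almost no counts in JxB uniparental embryos. Of 48 genes of the class I and interferon list 17 were lower and 5 higher (7 and 3 of 50 without embryos 1 and 2). The shares over all genes tested were 21.3% and 9.55% (6.77% and 5.29% without the pair). Of the genes given here, H2-Q6 and H2-K1 were chosen after their values were seen. H2-Q6 (chromosome 17, 35424850 to 35430055) had 0, 0, 0.653 and 0 CPM against 41.6, 141 and 175 CPM (log2 fold change -9.52 ± 0.93, adjusted p = 3.87e-15). H2-Q7 and H2-K1 had at most 1.31 and 1.96 CPM in the 4, against medians of 70.0 and 68.3 CPM in the 8. H2-Q4 had no count in the 4 and a median of 9.29 CPM in the 8, at least 34.0-fold lower (8.76-fold without embryos 1 and 2). These loci were read in JxB 2PN embryos (73.1, 48.7, 18.3 and 4.66 CPM for H2-Q6, H2-Q7, H2-K1 and H2-Q4). Class I genes are near copies of one another and are known to differ strongly in sequence between mouse strains, and the reference used is that of C57BL/6; whether reads of JF1/Ms origin were lost or assigned elsewhere was not tested. Oas1b, an interferon-induced antiviral gene of which C57BL/6 is known to carry a truncated allele, was higher in JxB. It had 110, 151, 81.6 and 160 CPM against 0, 4.77 and 25.1 CPM (log2 fold change 3.95 ± 1.19, adjusted p = 0.00729, and 0.0446 without the pair), and 26.4 against 3.01 CPM in 2PN embryos.

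KRAB zinc finger genes, which include silencers of transposons, were lower in 31 of 125 and higher in 7, and in 12 and 6 of 126 without embryos 1 and 2. Of all genes tested 21.3% were lower and 9.55% higher (6.77% and 5.29% without the pair), and the counts of each list here are to be read beside these. Zfp992 was higher in all 4, at 129, 159, 227 and 252 CPM against 1.71, 16.3 and 40.4 CPM (log2 fold change 3.46 ± 0.49, adjusted p = 1.69e-08). Zfp809, a silencer of retroviruses, was lower, at 16.5, 21.3, 6.53 and 0.998 CPM against 47.7, 162 and 361 CPM, and was lower in JxB 2PN embryos by -1.36. Glutathione and detoxification genes were lower in 8 of 51 and higher in 5 (4 and 3 of 53). Mgst3, a membrane glutathione transferase, was higher at 1471, 2478, 748 and 500 CPM against 51.9, 119 and 279 CPM (log2 fold change 3.47 ± 0.55), while Gclc and Gss, which make glutathione, were nearly silent (at most 3.92 and 0.653 CPM against medians of 50.2 and 25.9). For chromatin regulators the counts were 9 lower and 11 higher of 59, and 4 and 3 of 60 without the pair; their median log2 fold change was -0.15 and turned to 0.04 with DESeq2's size factors. Bmi1, of Polycomb complex 1, was higher, with 2236, 3726, 2398 and 3630 CPM against 557, 852 and 1604 CPM.

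Imprinted genes were looked at because a uniparental embryo holds either maternal or paternal copies. Among 32 paternally expressed genes, 5 were higher and 4 lower (3 and 1 of 33 without embryos 1 and 2), and of 27 maternally expressed genes 2 were higher and 1 lower (0 and 2). The shares over all genes tested were 9.55% higher and 21.3% lower (5.29% and 6.77% without the pair). The summed level of the paternally expressed list was 518, 592, 390 and 426 CPM in JxB and 132 to 370 CPM in BxJ uniparental embryos. It was 400 to 1064 CPM in JxB 2PN embryos, 97.0 to 721 CPM in BxJ 2PN embryos and 90.9 to 496 CPM in parthenotes. Snrpn, a paternally expressed splicing gene of the Prader-Willi region (chromosome 7), had 88.1, 179, 180 and 84.8 CPM in JxB and 7.98, 20.9 and 74.5 CPM in BxJ uniparental embryos, with no overlap (log2 fold change 2.35 ± 0.44, adjusted p = 1.42e-05, and 0.000772 without the pair). Snurf and Snhg14 of the same cluster were higher too, by 2.22 and 3.38; they overlap Snrpn, so the 3 are not independent. In 2PN embryos Snrpn averaged 351 CPM in JxB and 79.1 CPM in BxJ (log2 fold change 2.19, adjusted p = 5.85e-19), and in parthenotes 15.7 CPM, so its difference of contrasts was 0.16 (adjusted p = 0.899). Mcts2, a paternally expressed intronless gene, had no count in the 4 and 0.296 to 17.9 CPM in the 8, and 55.1 and 76.0 CPM in JxB and BxJ 2PN embryos; it has a parent gene of like sequence. Mest and Peg3 did not pass the test (1.23 ± 0.68 and 1.69 ± 0.97 on the log2 scale, adjusted p = 0.153 and 0.165).

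Among maternally expressed genes, Trappc9 (154, 41.7, 23.5 and 20 CPM against 2.29, 10.3 and 21.6) and Ppp1r9a (35.6, 87.5, 19.6 and 30.9 CPM against 2.22, 10.6 and 15.6) were higher with all 4 embryos but did not pass without embryos 1 and 2. Phlda2, a growth restrainer of the placenta, did not pass with all 4 (adjusted p = 0.0660) and was lower without the pair (1.31 and 0.998 CPM in embryos 3 and 7 against 9.47, 90.6 and 278 CPM, adjusted p = 0.00604). H13, Blcap, Grb10 and Meg3 did not pass in either fit. Xist, the RNA that silences an X chromosome, had 0, 0.568, 0 and 0 CPM in JxB and 0, 9.94 and 50.8 CPM in BxJ uniparental embryos (adjusted p = 0.0213, and 0.136 without the pair). It overlaps its antisense partner Tsix, which had 0 in the 4 and 0, 11.3 and 60.4 CPM in the 8; whether the counting used strand is not stated, so reads of the 2 cannot be told apart.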

How the data were processed

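The values are estimated counts per gene (43421 genes, 125 embryos), deposited by the authors as 1 table; 28.4% of its nonzero values are not whole. The submitters' processing notes name HISAT2 2.0.5, featureCounts 2.0.0 and GRCm38, the C57BL/6 reference; strand use and any correction for JF1/Ms alleles are not stated there. Of the gene IDs, 43266 had a symbol and 31816 a RefSeq row. The counts were rounded to whole numbers, and 4 embryos labelled dead or of low quality were left out.

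Genes were filtered by edgeR 4.0.16 (filterByExpr by group), scaled with TMM factors and fitted with the quasi-likelihood test (R 4.3.3) as the means of 7 groups over 121 embryos, which share 1 estimate of spread; p-values were adjusted by Benjamini-Hochberg over all genes tested, threshold 0.05. The difference test is the uniparental contrast of the crosses minus the 2PN contrast. The fit was tested on simulated data. CPM scales counts to the library's total. Genes with no count in a group have a bound, set against 3 counts over the group, in place of a fitted fold change, which there depends on the prior count; these intervals and floors cover counting error only. Library measures were compared with exact 2-sided permutation tests (Python 3.11.15, scipy 1.17.1; smallest p 0.00202).

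Named genes were, by log2 fold change, the 12 highest and 12 lowest that passed the test with and without embryos 1 and 2, did not overlap between the groups and averaged 10 CPM or more in the higher group. For the difference they were the 6 highest and 6 lowest past the test in both fits with at least 10 CPM in 1 of the 4 groups. Unnamed gene models were passed over, and 1 gene named by the rule for the difference is not reported here. Up to 4 members of each list, imprinted genes and label checks were added. Members and lists were chosen with earlier results of these data known. Promoters are RefSeq's (GRCm38.p6). Alternatives were DESeq2 1.42.0, its size factors, limma 3.58.1 voom, other filters, fewer embryos and a replicate block.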

Additional observations from a re-analysis of the deposited data

Results flagged for a closer look

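Of 49 groups of values looked at, 10 held a sample far from the others. Chance alone would set about 1 in 20 groups of normally spread values apart, a rate that does not hold for groups mostly at 0. Where all embryos but 1 are at 0, that embryo is always flagged. For Mef2c, Npy and Serpinb3b in BxJ it held 1 count, so the number of far samples is not set against chance. BxJ uniparental embryo 10 had 109253.9 CPM of oocyte-derived transcripts (the other 7 had 24011.3 to 59160.7) and 220.1 CPM of Adarb2 (others 29.2 to 84.8). Embryo 14 of that group had 175.5 CPM of Antxr1 (others 42.7 to 95.4) and 0.285 CPM of Serpinb3b (others 0). Embryo 19 had 222.7 CPM of Sva (others 4.45 to 80.2) and 0.318 CPM of Mef2c (others 0), and embryo 18 had 0.295 CPM of Npy (others 0). In the JxB group, embryo 2 had 40.3 CPM of Anxa1 (others 9.79 to 13.8) and embryo 1 had 39.01 CPM of Chst15 (others 7.10 to 9.98). Embryo 7 had 354.2 CPM of Zfp11, which was at 0 in the other 3.

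The contrast of the crosses differed between uniparental and 2PN embryos in 23 of the 31 genes named by the 2 rules. The test was the edgeR quasi-likelihood test of the difference with all 4 JxB embryos. Of the 31, 11 were chosen for passing this same test, so their passing was set in advance and 23 is not a rate. Sntb1, Cntnap5a, Ppp1r3a and Mef2c did not pass this test without embryos 1 and 2 (adjusted p = 0.145, 0.0547, 0.158 and 0.129). Several of these genes have no count in 1 group, and their fitted values depend on the prior count, so they show direction and not size. On the log2 scale the difference was -11.71 for Antxr1, -10.04 for Ccnjl, -8.92 for Arhgap8, -9.08 for Porcn, -10.5 for Hmgn3, -10.65 for Sva, -10.42 for Fgf7, -9.39 for Aloxe3 and -10.11 for Spz1. For the receptor genes Olfr376, Vmn1r227 and Vmn2r94 it was -11.9, -10.93 and -10.88, and for Arrdc4 -11.26. It was positive for Sntb1 (4.74), Tnfrsf11b (9.27), Cntnap5a (4.94), Ppp1r3a (3.81) and Mef2c (3.99). The values for Npy (13.82), Txndc8 (12.15), Olfr58 (11.52) and Serpinb3b (10.88) rested on JxB uniparental embryos 3 and 7, and that for Zfp11 (10.29) on embryo 7.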

How the results depend on the processing

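The number of genes called between the uniparental groups (7528) was 3149 without embryos 1 and 2 (3594 with DESeq2 and 3469 with limma voom, chosen after seeing the data) and 3010 with the 12 embryos fitted alone. Leaving out 1 embryo at a time gave 4980 (without JxB embryo 1) to 7991. The difference from the 2PN contrast (4052 genes) had 1267 calls without the pair and 2388 (without JxB embryo 1) to 4777 with 1 embryo left out; without JxB embryo 2 it had 2440. The 2PN contrast (9810) had 4857 calls with a minimum of 10 CPM. BxJ uniparental embryos against parthenotes (457) had 692 with voom, 1760 with no filter, 289 with the 10 CPM minimum, and 147 (without embryo 10) to 578 with 1 embryo left out, among them 275 without embryo 4. JxB uniparental embryos against parthenotes (10480) had 6934 with the 10 CPM minimum and 4591 without the pair. The fits with fewer embryos have fewer samples and the 10 CPM fits fewer genes; beyond that the cause was not tested.

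Without embryos 1 and 2 the gap in genes with a count was -4471.6 (adjusted exact permutation p = 0.0889, where the unadjusted p was the smallest that 2 against 8 embryos can give) and in mitochondrial share -2.41 percentage points (0.237); with 1 embryo left out the latter ran from -5.10 to -3.32 and missed the threshold without JxB embryo 1, 2 or 3. Zfp11 turned to -5.19 without JxB embryo 7 (up to 6.47 otherwise), and the difference for Zfp11 to -0.82 (up to 10.86). Of 130 named genes called in the main fit, 102 kept their call without the pair, 126 with DESeq2, 127 with voom and 130 with size factors. Some of the 130 were named for keeping their call without the pair, so 102 is not a rate for other genes. Over all genes, 2636 of the 7528 calls were made with and without the pair. A replicate block gave 3551 calls in the 2PN contrast, but same-numbered 2PN embryos did not deviate together (21 pairs, median r 0.0428, 3 over 0.1, 1 embryo best with its own number). No paired analysis was possible because the uniparental groups share 1 number only. Depth limits embryos 3 and 7 most: 3 counts are the floor over the group.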

Other observations

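Among genes called with and without embryos 1 and 2, chromosome 13 held 106 lower and 17 higher of 829 tested (14.8%), while the other autosomes held 8.36% to 13.5%. Spz1 and Adarb2 lie on it. Its genes were not tested as a set.

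All 8 Y-linked genes of the label check were at or near 0 in the uniparental embryos, yet 3 of 14 tested Y-chromosome features were higher in JxB, named here after their values were seen. Gm20775 had 25.5, 118, 35.9 and 43.9 CPM in JxB embryos 1, 2, 3 and 7 and at most 1.62 CPM in the 8 BxJ embryos (log2 fold change 6.97, adjusted p = 6.07e-13), with means of 21.2 CPM in JxB 2PN, 7.65 CPM in BxJ 2PN and 0.478 CPM in parthenotes. Gm20826 had 7.96, 1.42, 2.61 and 7.98 CPM against at most 1.48 CPM (adjusted p = 0.00352), and Gapdh-ps15 0.796, 5.96, 1.31 and 0.998 CPM against at most 0.286 CPM (adjusted p = 0.000172). Both kinds of feature, ampliconic gene models and a processed pseudogene, can share reads with copies elsewhere, so where these reads come from is uncertain.

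In the 14 1PN embryos not labelled Parthenote, 3 of the genes described above had these levels. Spz1 averaged 40.2 ± 8.78 CPM (SD, n = 3) in JxB and 36.1 ± 12.98 CPM (SD, n = 11) in BxJ. Prox1 averaged 12.9 ± 11.9 CPM (SD, n = 3) in JxB and was at 0 in all 11 BxJ embryos, and Npy averaged 8.94 ± 7.49 CPM (SD, n = 3) and 61.4 ± 37.3 CPM (SD, n = 11).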
